A study of Mus musculus with 2 samples.

Results

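The cyclin-dependent kinase inhibitors described here are 5 genes, Cdkn1a, Cdkn1b, Cdkn1c, Cdkn2c and Cdkn2d, taken by symbol from the 31053 genes measured in each library. All 5 had transcripts in both libraries. The libraries were made by the 10x Genomics 3' method from LSK cells of C57BL/6J mice 6 to 8 weeks old. LSK cells are the bone marrow fraction that is negative for lineage markers and positive for Sca1 and c-Kit, among which are the blood stem cells and early progenitors. There was 1 library from control mice and 1 from mice taken at day 15 after 5 Gy of irradiation of the whole body, and the labels do not say how many animals each library pooled. Because each group is 1 library, no test was possible and every interval below covers counting error only, not the spread between animals.

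These inhibitors hold the cell division cycle back. Cdkn1a, Cdkn1b and Cdkn1c encode p21, p27 and p57, the Cip/Kip proteins, which bind complexes of cyclin with CDK2 and restrain entry into S phase. Cdkn2c and Cdkn2d encode p18 and p19 of the INK4 family, which bind CDK4 and CDK6 and keep D-type cyclins from them. In mouse blood stem cells p57 is known for its part in quiescence, p18 for limiting self-renewal, and p21 as the main target through which p53 stops the cycle after DNA damage.

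In the GENCODE M21 annotation of the GRCm38 build, Cdkn1a (ENSMUSG00000023067) lies at chr17:29090976-29100727 on the plus strand and Cdkn1b (ENSMUSG00000003031) at chr6:134920401-134925513 on the plus strand. Cdkn1c (ENSMUSG00000037664) lies at chr7:143458339-143461050 on the minus strand, where it overlaps the antisense gene Gm44732, which was counted apart. Cdkn2c (ENSMUSG00000028551) lies at chr4:109660876-109667189 and Cdkn2d (ENSMUSG00000096472) at chr9:21288410-21291407, both on the minus strand. RefSeq promoter windows of 300 bases in the build GRCm38.p6 were found for 4 of the 5 genes, Cdkn1a, Cdkn1b, Cdkn2c and Cdkn2d. The windows of Cdkn1a and Cdkn2c are shown because these genes stood on opposite sides of the control level within cell classes. Each is written 5′ to 3′ along the gene, and capitals mark the only motif match found.
Cdkn1a upstream start, chr17:29090729-29091028, plus strand: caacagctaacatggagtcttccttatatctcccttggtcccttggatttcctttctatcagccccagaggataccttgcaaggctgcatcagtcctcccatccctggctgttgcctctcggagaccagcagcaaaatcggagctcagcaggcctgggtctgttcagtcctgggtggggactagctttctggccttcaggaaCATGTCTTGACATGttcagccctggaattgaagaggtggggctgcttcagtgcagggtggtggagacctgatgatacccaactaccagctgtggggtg
Cdkn1a downstream start, chr17:29093519-29093818, plus strand: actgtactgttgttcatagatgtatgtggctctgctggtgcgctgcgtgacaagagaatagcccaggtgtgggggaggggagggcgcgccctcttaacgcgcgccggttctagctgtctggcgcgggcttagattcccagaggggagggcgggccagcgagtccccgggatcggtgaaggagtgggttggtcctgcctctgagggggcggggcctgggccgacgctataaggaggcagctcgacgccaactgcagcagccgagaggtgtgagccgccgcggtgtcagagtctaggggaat
Cdkn2c downstream start, chr4:109665323-109665622, minus strand: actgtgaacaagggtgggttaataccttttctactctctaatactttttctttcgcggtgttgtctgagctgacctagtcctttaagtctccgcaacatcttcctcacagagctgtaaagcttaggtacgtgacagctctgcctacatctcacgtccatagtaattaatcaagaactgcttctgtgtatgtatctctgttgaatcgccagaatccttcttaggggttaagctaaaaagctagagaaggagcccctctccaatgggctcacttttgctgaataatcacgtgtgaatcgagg
Cdkn2c upstream start, chr4:109666707-109667006, minus strand: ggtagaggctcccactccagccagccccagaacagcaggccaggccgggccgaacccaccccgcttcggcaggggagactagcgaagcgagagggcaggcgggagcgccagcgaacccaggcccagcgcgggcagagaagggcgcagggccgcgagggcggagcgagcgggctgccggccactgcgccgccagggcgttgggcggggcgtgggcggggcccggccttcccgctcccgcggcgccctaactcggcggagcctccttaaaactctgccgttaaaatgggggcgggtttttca
The capitals, CATGTCTTGACATG, match the searched letters CATGNNNNNNCATG, a pair of the cores of a p53 response element, which reads the same on both strands. The match begins 48 bases before the upstream start of Cdkn1a. Among 32851 windows of the same length, 234 (0.712%) held these letters. None of the windows of the 4 genes held, on either strand, TTTGAA of the cell cycle homology region (in 17.9% of all windows), the FoxO motif GTAAACA (in 3.65%) or the E2F motif TTTGGCGC (in 0.514%). A match of letters is a description of the window and shows no binding.

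After filtering, 7188 control and 5112 irradiated cells remained, with 138080503 and 162748209 UMIs (unique molecular identifiers, each taken as 1 captured transcript) and medians of 16083.5 and 29615 UMIs per cell. Levels are given as counts per 1000000 UMIs (CPM) of the summed cells. The cell mix differed strongly between the libraries. HSC-like cells (haematopoietic stem cell markers Hlf, Procr, Mecom) made up 22.1% of control and 3.97% of irradiated cells, lymphoid-primed-like cells 26.4% and 10.0%, and megakaryocyte-primed-like cells 10.9% and 20.4%. The shares depend on the clustering. HSC-like cells numbered 1592 and 203 here, 2120 and 627 at resolution 0.5, and 1309 and 92 with 30 neighbours from all cells. Neutrophil-primed-like cells made up 1.36% and 20.9%, and erythroid-primed-like cells 0.445% and 8.35%. Clusters that met the naming rule for no marker list are called by their leading genes. These were a Top2a-led cluster of dividing cells (17.7% and 19.95%) and a Wfdc17/Cd33-led cluster (15.2% and 2.07%). Others were a Mcpt8/Cebpa-led cluster (3.41% and 11.9%) and a small Cd74/Xcr1-led cluster (0.835% and 1.96%). The summed lymphoid-primed list stood higher in the Wfdc17/Cd33-led cluster (1946 and 2641 CPM) than in lymphoid-primed-like cells (1321 and 1343 CPM). B-lineage-like cells numbered 110 and 24. By expression of phase genes, 46.5%, 30.2% and 23.4% of control cells and 18.9%, 34.5% and 46.6% of irradiated cells were called as G1, S and G2/M.

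Over all cells, every inhibitor stood lower in the irradiated library. Differences were sorted by size: a gene counted as higher or lower where its CPM in one library exceeded that in the other by at least 25%, given a mean of at least 5 CPM. By that rule 4 of the 5 inhibitors were lower and 0 were higher, against backgrounds of 28.3% lower and 17.2% higher among 9032 genes. Cdkn1c differed most, at 9.11 CPM without and 2.67 CPM with irradiation, or 3.41-fold lower (log2 ratio -1.77, 95% interval -1.93 to -1.61). Cdkn2c averaged 15.7 against 7.75 CPM (log2 ratio -1.01, -1.12 to -0.91). Genes that were lower by at least 2-fold, as these 2 were, made up 4.79% of all genes. Cdkn1b averaged 65.6 against 43.3 CPM (log2 ratio -0.60, -0.64 to -0.55). Cdkn1a averaged 104 against 77.5 CPM (log2 ratio -0.42, -0.46 to -0.39). Cdkn2d, at 51.0 and 43.1 CPM, had a log2 ratio of -0.24 (-0.29 to -0.19) and did not reach the size counted.

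With every cell thinned to 5000 UMIs, the share of cells with a transcript moved the same way as the CPM. Cdkn1a was seen in 34.4% of control and 29.3% of irradiated cells, Cdkn1b in 26.6% and 20.2%, Cdkn1c in 5.13% and 1.66%, Cdkn2c in 6.60% and 4.06%, and Cdkn2d in 21.9% and 20.2%. Unthinned, the shares were 61.2% and 66.2% for Cdkn1a, 60.0% and 64.0% for Cdkn1b, 12.1% and 6.48% for Cdkn1c, 21.9% and 18.7% for Cdkn2c, and 52.4% and 62.1% for Cdkn2d. The order for Cdkn1a, Cdkn1b and Cdkn2d turned with depth, so only the thinned shares are compared. Cells in which no inhibitor was seen made up 34.1% (95% interval 33.0 to 35.3) of the control library and 44.2% (42.8 to 45.6) of the irradiated one. A rise of this size was not seen in the classes given next, and the other classes and clusters were not examined. The share was 32.2% and 27.6% in HSC-like cells and 37.0% and 37.6% in lymphoid-primed-like cells. It was 41.7% and 35.6% in megakaryocyte-primed-like cells and 73.2% and 63.4% in neutrophil-primed-like cells. No thinned cell held all 5.

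**Figure D1:**
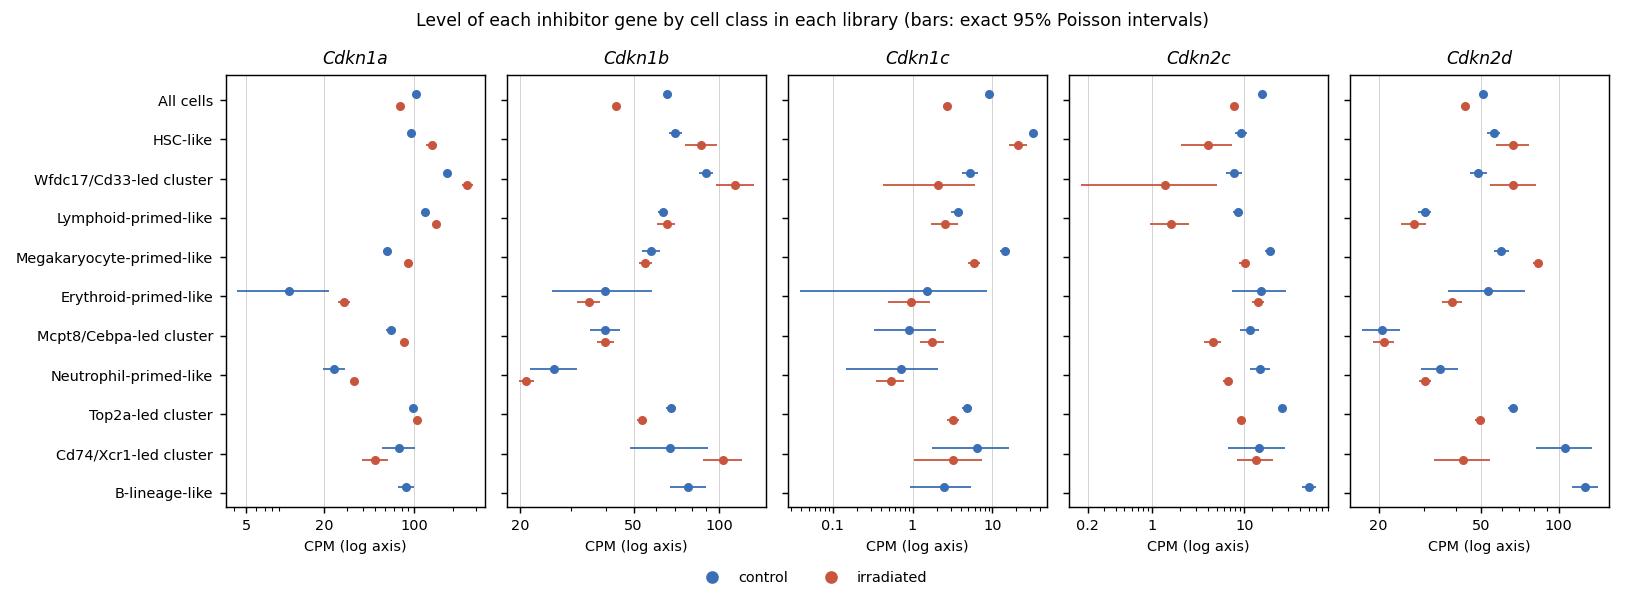
Level of each inhibitor gene in CPM (log axis, a different range in each panel) in all cells and in each class or cluster with at least 30 cells, with control in blue and irradiated in red. Points are summed UMIs of 1 library and bars are exact 95% Poisson intervals. Cdkn1a lies lower in red over all cells and higher in red in the HSC-like class, where it stood at 93.9 and 137 CPM.

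Within classes Cdkn1a took the other direction: its level was higher after irradiation in each class or cluster that held at least 100 cells of both libraries. In HSC-like cells 1887 control UMIs gave 93.9 CPM and 368 irradiated UMIs gave 137 CPM, 1.45-fold higher (log2 ratio 0.54, 0.38 to 0.70). In megakaryocyte-primed-like cells it stood at 61.9 and 89.9 CPM, also 0.54 (0.42 to 0.66). In lymphoid-primed-like cells it stood at 122 and 147 CPM, 0.28 (0.19 to 0.36), below the size counted. The Wfdc17/Cd33-led cluster held its highest level in both libraries, 179 against 259 CPM (log2 ratio 0.53, 0.37 to 0.69). The Mcpt8/Cebpa-led cluster stood at 66.5 and 84.3 CPM, 0.34 (0.19 to 0.50), and the Top2a-led cluster at 98.0 and 105 CPM, 0.09 (0.03 to 0.16).

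The 4 groups lowest in control Cdkn1a, namely erythroid-primed-like, neutrophil-primed-like and megakaryocyte-primed-like cells and the Mcpt8/Cebpa-led cluster, each made up a larger share of the irradiated library. Neutrophil-primed-like cells averaged 24.1 CPM in 98 control cells and 34.4 CPM after irradiation, and erythroid-primed-like cells averaged 10.7 CPM in 32 control cells and 28.8 CPM after irradiation. When irradiated class levels were averaged with the control library's share of UMIs in each class, Cdkn1a came to 131 CPM against 104 CPM, a log2 ratio of 0.33 (0.28 to 0.38). This turned the sign of the all-cell value of -0.42. The size depended on how cells were classed: with each cell named by its own markers the value at the control mix was 0.04, and the values within HSC-like, lymphoid-primed-like and megakaryocyte-primed-like cells were 0.04, 0.09 and 0.15. In HSC-like cells the 10 cells richest in Cdkn1a held 24.2% of its irradiated UMIs, and without the 10 richest cells of each library the log2 ratio was 0.31. Leaving out 10 cells takes a larger part of the irradiated HSC-like cells, which were fewer, and by itself pulls the ratio down.

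In descending order, control Cdkn1a ran from the Wfdc17/Cd33-led cluster through lymphoid-primed-like cells, the Top2a-led cluster, HSC-like and B-lineage-like cells, the Cd74/Xcr1-led cluster, the Mcpt8/Cebpa-led cluster, megakaryocyte-primed-like, neutrophil-primed-like and erythroid-primed-like cells. The counting intervals of neighbours overlapped from the Top2a-led cluster (94.96 to 101) and HSC-like cells (89.7 to 98.2) through B-lineage-like cells (75.2 to 99.2) and the Cd74/Xcr1-led cluster (56.6 to 102) to the Mcpt8/Cebpa-led cluster (60.4 to 73.0) and megakaryocyte-primed-like cells (57.8 to 66.2). The levels of the remaining neighbours stood apart, except that the intervals of neutrophil-primed-like and erythroid-primed-like cells met near 20 CPM (19.6 to 29.2 and 4.29 to 22.0). In the irradiated library the Wfdc17/Cd33-led cluster again led and erythroid-primed-like cells again came last.

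**Figure D2:**
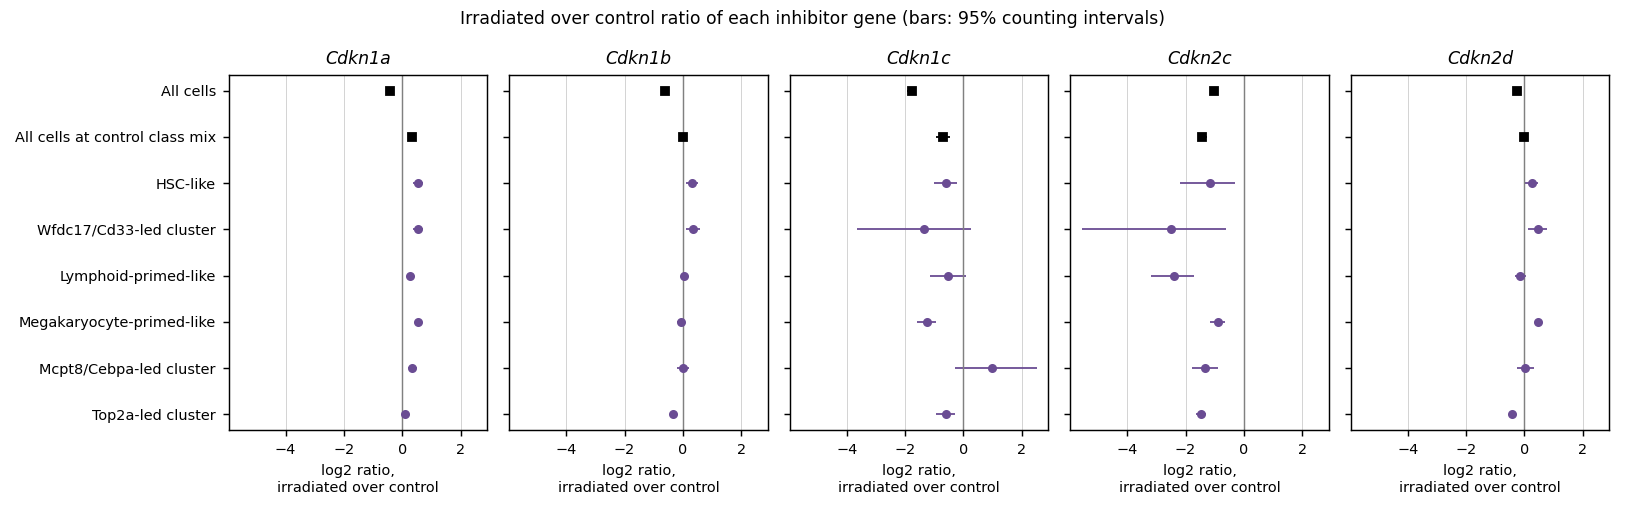
Log2 ratio of irradiated over control CPM for each inhibitor gene, over all cells, over all cells at the control class mix (squares) and within classes and clusters of at least 100 cells per library (circles), with 95% counting intervals. Cdkn1a moves from -0.42 over all cells to 0.33 at the control mix, while Cdkn2c lies below 0 in every row.

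Cdkn1b differed little on average at a fixed class mix, but single clusters differed in both directions. HSC-like cells averaged 70.0 against 86.4 CPM (log2 ratio 0.30, 0.10 to 0.51), below the size counted. That sign turned in 3 of 12 alternatives, to -0.10 at clustering resolution 1.5, -0.094 with the highest Scrublet scores removed and -0.058 with cells named by their own markers. Lymphoid-primed-like cells stood at 63.3 and 65.2 CPM, 0.04 (-0.08 to 0.16), and megakaryocyte-primed-like cells at 57.5 and 55.0 CPM, -0.06 (-0.19 to 0.07). It was lower in the Top2a-led cluster, at 67.5 and 53.6 CPM (log2 ratio -0.33, -0.42 to -0.25), and higher in the Wfdc17/Cd33-led cluster, at 89.9 and 114 CPM (0.34, 0.10 to 0.58). Its lowest irradiated level was in neutrophil-primed-like cells, at 26.2 and 21.0 CPM. At the control class mix the log2 ratio was 0.02 (-0.05 to 0.09), and it was -0.15 at the irradiated class mix.

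HSC-like cells held 644 of the 1258 control UMIs of Cdkn1c. Of its 435 irradiated UMIs they held 57, fewer than megakaryocyte-primed-like cells (136) and the Top2a-led cluster (131). The control level there was 32.0 CPM (95% interval 29.6 to 34.6), and the 57 irradiated UMIs gave 21.1 CPM (log2 ratio -0.60, -1.02 to -0.21). The ratio was -0.32 with cells thinned, just short of the size counted, and -1.67 without the 10 cells of each library richest in Cdkn1c. Those 10 are a larger part of the 203 irradiated than of the 1592 control HSC-like cells, which by itself pulls the ratio down. Megakaryocyte-primed-like cells came next, at 14.3 against 5.97 CPM (log2 ratio -1.26, -1.59 to -0.94). Within the pair of clusters that make up that class it was -0.92 (12.6 and 6.64 CPM) and -2.46 (23.6 and 4.29 CPM). No other class with at least 100 cells passed 6 CPM in either library. In the Top2a-led cluster it stood at 4.86 and 3.19 CPM (-0.61, -0.94 to -0.28), and in lymphoid-primed-like cells at 3.66 and 2.56 CPM (-0.52, -1.15 to 0.07), an interval that includes 0. Among thinned cells, 13.8% of control and 9.55% of irradiated HSC-like cells held a Cdkn1c transcript. Neutrophil-primed-like cells, taken as a background, held it in 0 of 97 control cells, which at 3 counts of the total allows a share of cells with a UMI of up to 3.09%, and in 0.281% of irradiated cells. Median depths before thinning were 11469 and 12798 UMIs in HSC-like cells and 43697.5 and 45004.5 UMIs in neutrophil-primed-like cells. At the control class mix Cdkn1c had a log2 ratio of -0.71 (-0.95 to -0.46), against -1.77 over all cells. The defining HSC markers did not all differ in the same direction: within HSC-like cells Hlf stood at 404 and 300 CPM and Procr at 55.2 and 64.6 CPM.

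Cdkn2c was lower in every class and cluster compared. In lymphoid-primed-like cells 300 control UMIs gave 8.45 CPM and 18 irradiated UMIs gave 1.59 CPM, 5.32-fold lower (log2 ratio -2.41, -3.19 to -1.73). The Top2a-led cluster, with the most Cdkn2c UMIs, averaged 25.7 CPM from 1029 UMIs and 9.19 CPM from 377 UMIs (log2 ratio -1.48, -1.66 to -1.31). Megakaryocyte-primed-like cells stood at 18.9 and 10.1 CPM, -0.90 (-1.17 to -0.64), and at -1.61 and -1.01 within the clusters of that class. The Mcpt8/Cebpa-led cluster stood at 11.5 and 4.53 CPM, -1.34 (-1.79 to -0.88). HSC-like cells stood at 9.25 CPM and 4.08 CPM, -1.18 (-2.21 to -0.31), but the irradiated value rests on 11 UMIs. The Wfdc17/Cd33-led cluster had 2 irradiated UMIs, with 7.78 and 1.39 CPM. Neutrophil-primed-like cells stood at 14.9 and 6.59 CPM and erythroid-primed-like cells at 15.2 and 14.0 CPM, both with under 100 control cells.

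The share of thinned lymphoid-primed-like cells with a Cdkn2c transcript was 4.11% (3.27 to 5.11) in control and 0.391% (0.0474 to 1.41) in irradiated cells. The control level of the gene was 50.8 CPM in B-lineage-like cells and 49.1 CPM in 1 of the clusters joined as megakaryocyte-primed-like, against 25.7 CPM in the Top2a-led cluster. At the control class mix the log2 ratio of Cdkn2c was -1.43 (-1.59 to -1.27), farther from 0 than over all cells. Genes lower by at least 2-fold made up 0.932% of genes in lymphoid-primed-like cells, 1.41% in HSC-like cells, 1.49% in the Top2a-led cluster and 1.58% in megakaryocyte-primed-like cells. Cdkn2c itself was 1.87-fold lower in megakaryocyte-primed-like cells and so was not among that 1.58%. In lymphoid-primed-like cells its mean lay just above the minimum of 5 CPM.

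Cdkn2d differed by class in both size and sign. Megakaryocyte-primed-like cells averaged 59.97 against 83.0 CPM, 1.38-fold higher (log2 ratio 0.47, 0.35 to 0.59). That class joins a pair of clusters, and within them the log2 ratios were 0.21 (44.0 and 50.7 CPM) and 0.16 (146 and 163 CPM), neither of which reaches the size counted. The Cdkn2d-rich cluster took in 88 of the 786 control cells of the class and 251 of the 1044 irradiated ones. In the Top2a-led cluster Cdkn2d was lower, at 66.2 and 49.5 CPM, -0.42 (-0.50 to -0.34), and in the Wfdc17/Cd33-led cluster higher, at 48.7 and 66.6 CPM, 0.45 (0.13 to 0.76). HSC-like cells stood at 56.0 and 66.4 CPM (0.25, 0.01 to 0.48), lymphoid-primed-like cells at 30.2 and 27.4 CPM (-0.14, -0.33 to 0.04) and the Mcpt8/Cebpa-led cluster at 20.5 and 20.9 CPM (0.03, -0.25 to 0.32). The control level of B-lineage-like cells was 127 CPM, below that of the Cdkn2d-rich cluster. At the control class mix the log2 ratio was -0.01 (-0.09 to 0.06).

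Counted by class, in HSC-like cells 1 inhibitor was higher and 2 were lower, against backgrounds of 11.9% and 15.7% of genes. In megakaryocyte-primed-like cells 2 were higher and 2 lower, against 8.05% and 18.7%. Cdkn2d, 1 of the higher ones, reached the size counted in neither of the clusters joined in that class. Of the 4 inhibitors at 5 CPM or more in lymphoid-primed-like cells, 0 were higher and 1 was lower, against 7.67% and 14.6%. The Top2a-led cluster had 0 of 4 higher and 3 lower, against 9.95% and 20.7%, the Wfdc17/Cd33-led cluster 3 of 3 higher and 0 lower, against 15.3% and 23.7%, and the Mcpt8/Cebpa-led cluster 1 of 4 higher and 1 lower, against 11.1% and 11.6%. With 3 to 5 genes per class these counts are a description.

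Other measures moved with the library inside these classes. Elane, a neutrophil protease that HSC-like cells should lack, reached 1.54 against 26.0 CPM in HSC-like cells, against 2677 and 2365 CPM in neutrophil-primed-like cells. Ly6a, the gene of the sorted antigen Sca1, reached 253 against 551 CPM there, and Kit 218 against 160 CPM. All 9 HSC markers were detected in HSC-like cells of both libraries, with summed levels of 758 and 703 CPM. In megakaryocyte-primed-like cells the same list summed to 363 and 235 CPM, and in the Wfdc17/Cd33-led cluster to 251 and 130 CPM, where Fgd5 and Hoxb5 were at 0 in irradiated cells. In the Top2a-led cluster the summed neutrophil-primed list stood at 1543 and 2858 CPM, the lymphoid-primed list at 1051 and 623 CPM and the HSC list at 147 and 80.9 CPM. In the Mcpt8/Cebpa-led cluster the mast cell and basophil list summed to 1131 and 170 CPM. In the Cd74/Xcr1-led cluster mature neutrophil genes summed to 58859 and 30.2 CPM and the monocyte and dendritic list to 4215 and 16209 CPM. The part of these measures in the inhibitor ratios was not tested.

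The inhibitors differed in level between called phases. Over all cells, whose class mix differs between phases, Cdkn1c and Cdkn1a were lowest in G2/M and Cdkn2c was highest there, in both libraries. Cdkn2c stood at 7.66, 12.6 and 25.9 CPM in control cells called G1, S and G2/M and at 2.79, 5.43 and 10.1 CPM in irradiated cells, so that G2/M lay 3.38-fold and 3.60-fold above G1. Cdkn1c stood at 16.2, 6.72 and 5.00 CPM in control and 6.83, 2.69 and 1.91 CPM in irradiated cells. Cdkn1a stood at 120, 109 and 83.9 CPM in control and 117, 86.0 and 65.3 CPM in irradiated cells. By point values these orders did not hold in every class. Control Cdkn2c was highest in S in HSC-like cells (8.56, 12.1 and 7.31 CPM in G1, S and G2/M) and in lymphoid-primed-like cells (5.72, 10.2 and 8.41 CPM). The G2/M values rest on only 43 HSC-like cells and on 27 Cdkn2c UMIs in lymphoid-primed-like cells. Whether S truly exceeds G2/M there is therefore uncertain. Irradiated lymphoid-primed-like cells had Cdkn1a at 143, 146 and 159 CPM, with counting intervals of the ratios that include 0.

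Over all cells, Cdkn1b and Cdkn2d shared a dip in S phase. Cdkn1b stood at 75.4, 52.5 and 69.1 CPM in control cells called G1, S and G2/M and at 68.5, 36.8 and 42.8 CPM in irradiated cells. Cdkn2d stood at 49.99, 31.2 and 71.3 CPM and at 44.4, 30.1 and 51.0 CPM. The dip did not hold in every class. In megakaryocyte-primed-like cells Cdkn2d stood at 45.0, 45.4 and 97.7 CPM in control and 52.6, 57.5 and 122 CPM in irradiated cells. Cdkn1b dipped there, at 62.3, 42.1 and 81.7 CPM and at 58.1, 47.1 and 61.2 CPM. In that class Cdkn2d lay 2.15-fold and 2.13-fold higher in G2/M than in S. In the Top2a-led cluster 0 cells of either library were called G1. Cdkn1b in G2/M lay 1.41-fold above S there in control and 1.42-fold in irradiated cells.

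**Figure D3:**
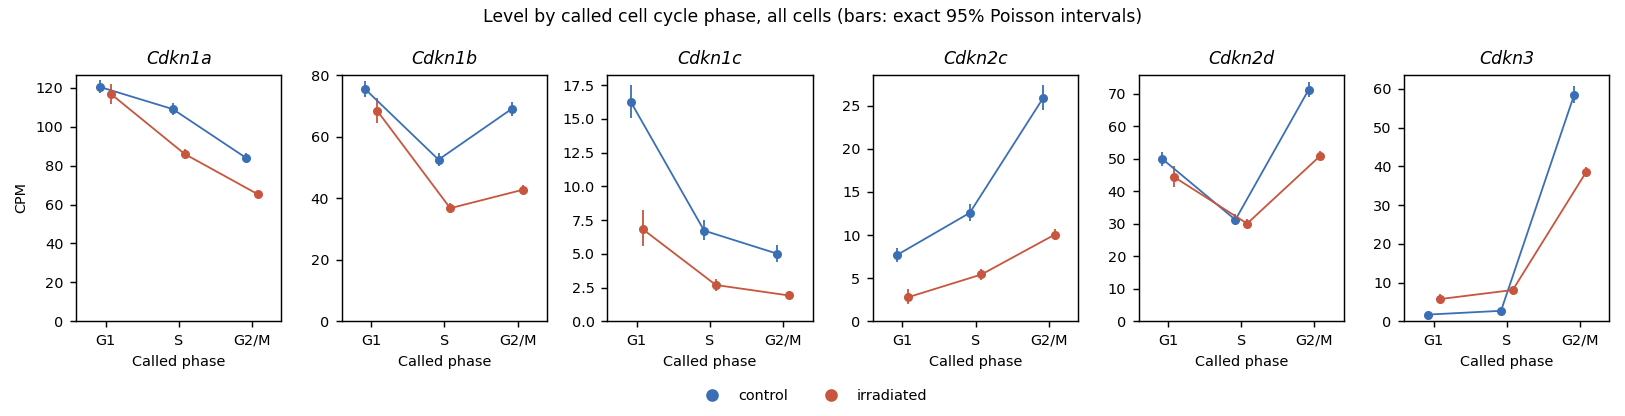
Level in CPM (axis from 0) of the 5 inhibitor genes and of Cdkn3, a mitotic phosphatase gene, in cells called G1, S or G2/M in the control (blue) and irradiated (red) library, with exact 95% Poisson intervals. Cdkn2c is higher in G2/M than in G1 in both libraries and lies lower in red at each phase, with 25.9 and 10.1 CPM in G2/M.

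Between libraries, Cdkn2c was lower at each called phase, with log2 ratios of -1.45 (-1.94 to -1.002) in G1, -1.21 (-1.42 to -1.01) in S and -1.36 (-1.49 to -1.24) in G2/M. Cdkn1c had log2 ratios of -1.25, -1.32 and -1.39. Cdkn1a in G1 differed by -0.05 (-0.12 to 0.03), and by -0.34 and -0.36 in S and G2/M. Of the inhibitors at 5 CPM or more, 2 of 5 were lower in G1, 3 of 4 in S and 4 of 4 in G2/M, and 0 were higher at any phase. The backgrounds were 22.2%, 25.7% and 26.5% lower and 12.6%, 14.2% and 14.5% higher. The mitotic gene Cdkn3 differed less between called phases in the irradiated library: it reached 1.72 against 5.71 CPM in cells called G1, and 58.5 against 38.4 CPM in G2/M. Its part in the phase values was not tested.

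**Figure D4:**
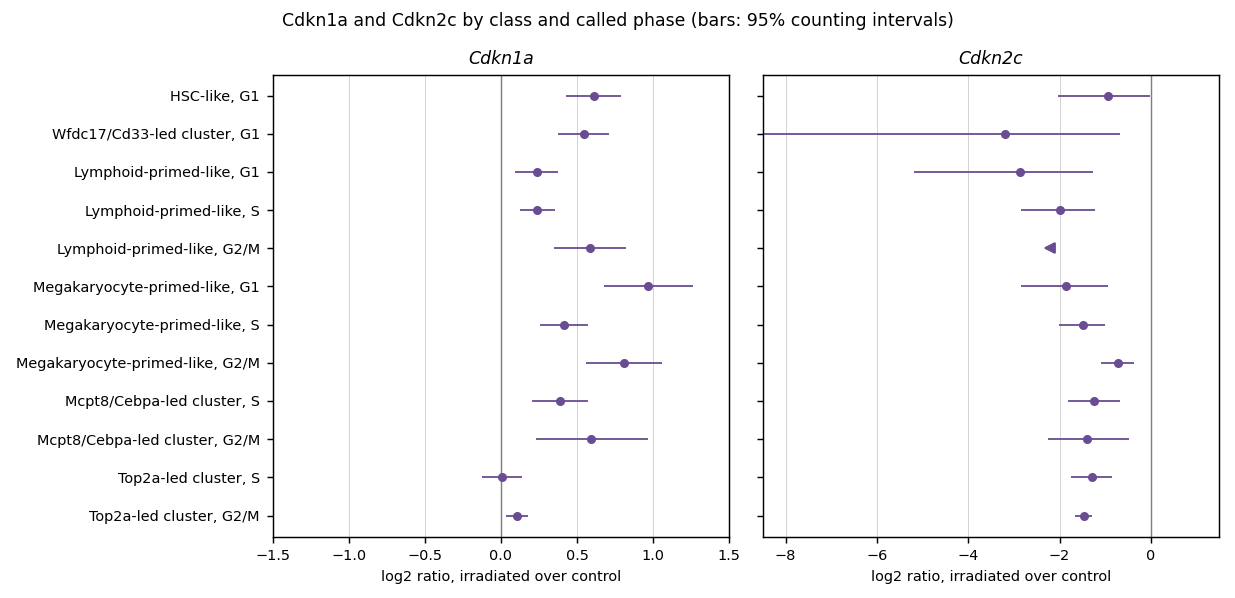
Log2 ratio of irradiated over control CPM for Cdkn1a and Cdkn2c within each class and called phase that held enough cells in both libraries, with 95% counting intervals (the interval of the Wfdc17/Cd33-led cluster reaches the left edge of the Cdkn2c panel). The arrow for Cdkn2c in lymphoid-primed-like G2/M cells marks -2.20, the value at a floor of 3 irradiated UMIs, since the irradiated count was 0. The upper limit of the exact counting interval there was -1.80. The values of Cdkn1a run from 0.01 in the Top2a-led cluster in S to 0.97 in megakaryocyte-primed-like cells in G1.

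With class and phase both held, the opposite signs of Cdkn1a and Cdkn2c remained. In HSC-like cells called G1, 1287 in control and 174 in the irradiated library, Cdkn1a averaged 90.3 against 138 CPM (log2 ratio 0.61, 0.43 to 0.79). Cdkn1b stood at 69.2 and 96.7 CPM in the same cells, 0.48 (0.26 to 0.69), and Cdkn1c at 36.0 and 21.8 CPM, -0.72 (-1.17 to -0.30). Cdkn2c stood at 8.56 and 4.46 CPM, -0.94 (-2.04 to -0.02), from 129 and 10 UMIs, and Cdkn2d at 60.9 and 69.1 CPM, 0.18 (-0.07 to 0.43).

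In megakaryocyte-primed-like cells called G1, Cdkn1a averaged 48.3 against 94.3 CPM (log2 ratio 0.97, 0.68 to 1.26), the largest for this gene among the class and phase groups. Lymphoid-primed-like cells called G1, S and G2/M had Cdkn1a log2 ratios of 0.24, 0.24 and 0.58. Cdkn2c in those cells stood at 5.72, 10.2 and 8.41 CPM in control and at 0.779 and 2.57 CPM in irradiated G1 and S cells. In G2/M it had 27 control UMIs and 0 irradiated UMIs. With a floor of 3 irradiated UMIs it would stand 4.59-fold lower, a value that leaves out the counting error of the control UMIs. The exact counting interval of the log2 ratio, which includes that error, had an upper limit of -1.80. With both class and phase at the control mix, the log2 ratios were 0.32 for Cdkn1a, 0.00 for Cdkn1b, -0.71 for Cdkn1c, -1.46 for Cdkn2c and -0.03 for Cdkn2d.

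The partners and regulators of the inhibitors were counted over all cells in the same way, beside the same backgrounds of 17.2% higher and 28.3% lower. Of 11 genes of G1 cyclins and their kinases, 3 were higher and 1 lower: Ccnd1, the gene of cyclin D1, stood at 30.1 and 53.9 CPM (log2 ratio 0.84), and Ccnd2, of cyclin D2, at 198 and 152 CPM (-0.38). Of 10 genes of S, G2 and M cyclins and kinases, 6 were higher and 0 lower, among them Ccna2 at 45.5 and 72.9 CPM (0.68). Within the Top2a-led cluster 0 of those 10 were higher and 2 were lower, against backgrounds of 9.95% and 20.7%. Of 16 measured Rb and E2F genes 3 were higher and 3 lower, with Tfdp2, a dimerisation partner of E2F, at 66.0 and 34.4 CPM (-0.94). Among 13 genes for the breakdown of Cip/Kip proteins by ubiquitin 4 were higher and 0 lower, led by Cks2 at 264 and 425 CPM (0.69).

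Genes listed as transcriptional regulators of the inhibitors, with Mdm2 and Mdm4 on the list, had 0 higher and 7 lower of 15 measured. Egr1, an immediate early factor, stood at 269 and 85.1 CPM (log2 ratio -1.66), Klf6 at 255 and 94.6 CPM (-1.43), and Foxo3, which activates Cdkn1b, at 46.8 and 25.5 CPM (-0.88). Trp53, the gene of p53, stood at 181 and 184 CPM. Within HSC-like cells 3 of 16 were higher and 2 lower, near the backgrounds of 11.9% and 15.7%, and Egr1 and Foxo3 had log2 ratios of -0.47 and -0.14. Other p53 target genes had 4 higher and 7 lower of 13 measured over all cells. Bax, which promotes cell death, stood at 92.1 and 133 CPM (0.53), Btg2 at 241 and 93.3 CPM (-1.37) and Sesn1 at 37.1 and 18.4 CPM (-1.01). Within HSC-like cells 1 of 11 of these was higher and 2 were lower, and Bax, Btg2 and Sesn1 had log2 ratios of 0.31, 0.20 and -0.42. The median log2 ratios of these lists over all cells were 0.07, 0.36, -0.03, 0.26, -0.28 and -0.36 in the order given, beside -0.06 over all genes. The related genes Cdkn2a and Cdkn2b were near absent, with 3 and 1 UMIs in control and 27 and 11 UMIs in irradiated cells.

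The level of each inhibitor was also followed over 16 sums, each of a class or cluster with at least 100 cells in 1 library. Over these points, which share libraries and depth, 5034 genes were ranked by the Pearson correlation of log2(CPM + 1). Nearest to Cdkn1a were Slc38a1 (r = 0.94), Rnf34, Mndal, Ifi203 and Marcksl1. Nearest to Cdkn1b were Wnk1 (0.97), Med13, Ddx6, Msn and Mef2a, and nearest to Cdkn1c were Tsc22d2 (0.93), Elf2, Gkap1, Appbp2 and Vezf1. Cdkn2c followed Bbip1 (0.87), Cenpc1, Caap1, Rad21 and Lnpk, and Cdkn2d followed Ubb (0.92), Virma, Casc3, Ppp6r3 and Hist1h1c. Among the inhibitors themselves the highest r was 0.70, between Cdkn1a and Cdkn1b, and the lowest -0.48, between Cdkn1a and Cdkn2c. At the level of single thinned cells, 28.3% of control cells with a Cdkn1a transcript also held one of Cdkn1b, against 25.8% of cells without. Within classes these control shares were 24.8% and 24.6% in lymphoid-primed-like cells and 22.2% and 23.4% in megakaryocyte-primed-like cells. They were 29.4% and 27.2% in HSC-like cells. In neutrophil-primed-like cells they were 25% and 8.24%, with only 12 control cells holding a Cdkn1a transcript.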

How the data were processed

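Per the submitters' processing notes, the authors used Cell Ranger 2.1.1 and the mm10 build, and version 3.1.0 stands in the header of each matrix. The authors' deposited matrices hold raw UMI counts, 1 whole number per gene and barcode, for 7686 control and 5596 irradiated barcodes, 16 of them shared. The inhibitor genes and the gene lists were chosen with earlier results of these data known. The genes named are the 5 members, up to 3 genes per list with the largest CPM ratio at a mean of at least 20 CPM, and the 5 nearest genes per member. Trp53 and the values of Cdkn2a, Cdkn2b and Cdkn3 were added after their values were seen, as was the share of cells holding both Cdkn1a and Cdkn1b.

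Barcodes with at least 1000 UMIs, 500 genes and at most 10% mitochondrial UMIs were kept, which removed 496 and 468. Scrublet, at an expected rate of 0.06, marked 2 and 16 cells (0.0278% and 0.312%), so doublet calling has not worked here. Cells were clustered with scanpy 1.11.5 on 2000 variable genes (without the inhibitors and phase genes), 30 components and 15 neighbours from each library, with Leiden at resolution 1. A cluster took a name when at least 3 markers stood among its 25 leading genes and at least 3 were seen in at least 25% of its cells, a rule set after the data were seen; a class name may therefore differ from the study's. Class ratios need at least 100 cells per library and printed levels at least 30. Phases were called on cells thinned to 5000 UMIs, and 66 control and 59 irradiated cells fell below that; 1306 and 1043 cells lay within 0.05 of a phase boundary.

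Ratios carry exact 95% Clopper-Pearson intervals conditional on the total count, levels exact Poisson intervals, and shares exact Clopper-Pearson intervals. Values at a fixed class mix carry a delta-method interval. Ratios and intervals were tested on simulated data with known folds. UMIs mark captured molecules, so intervals and floors cover counting error only. Alternatives covered cell filters, doublets, weighting, scaling, clustering, naming and phase calls. Chromosomal positions are from GENCODE M21, in which 31011 of 31053 gene identifiers were found. Each group is 1 library, so no p-values were computed.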

Additional observations from a re-analysis of the deposited data

Results flagged for a closer look

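Some inhibitor ratios pointed in opposite directions in different clusters with counting intervals that exclude 0, and these differences were not tested, since each group is 1 library. For Cdkn1b, the log2 ratio in the Wfdc17/Cd33-led cluster exceeded that in the Top2a-led cluster by 0.67. For Cdkn2d, the ratio in megakaryocyte-primed-like cells exceeded that in the Top2a-led cluster by 0.89, and the ratio in the Wfdc17/Cd33-led cluster exceeded it by 0.87. The megakaryocyte-primed-like class joins a pair of clusters. Within them the Cdkn2d log2 ratios were 0.21 (0.04 to 0.37) and 0.16 (-0.02 to 0.35), below the size counted, and the second interval includes 0.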

How the results depend on the processing

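No paired analysis was possible because each group is 1 library. No alternative turned the sign of any of the 5 all-cell ratios. Weighting each cell equally or thinning to 5000 UMIs gave smaller values: -0.28 and -0.32 for Cdkn1a, -0.42 and -0.49 for Cdkn1b, -0.84 and -0.77 for Cdkn2c, and -0.10 and -0.081 for Cdkn2d. A limit of 5% mitochondrial UMIs gave -1.55 for Cdkn1c. With a minimum mean of 20 CPM, 2 inhibitors in place of 4 were counted as lower over all cells, 1 class pair in place of 5 and 5 phase pairs in place of 9, since fewer genes were eligible.

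Of 15 pairs of an inhibitor with HSC-like, lymphoid-primed-like or megakaryocyte-primed-like cells, 3 were higher and 5 lower. Cdkn1c in lymphoid-primed-like cells fell below the minimum of 5 CPM and could not be counted. Of all genes, 11.9%, 7.67% and 8.05% were higher in these classes and 15.7%, 14.6% and 18.7% lower. These backgrounds are for the main setting only. The count of higher pairs was 1 with the highest Scrublet scores removed, at resolution 1.5 and with cells named by their own markers, and 5 with cells weighted equally or thinned. At resolution 0.5, where 10 pairs had a value, 1 was higher and 2 lower, and with 30 neighbours from all cells, also with 10 pairs, 1 was higher and 3 lower. Without the 10 cells richest in each gene 3 were lower. The cause was not tested. Cdkn1a stayed above 0 in HSC-like cells in 12 of 12 alternatives (0.04 to 0.61), in lymphoid-primed-like cells in 13 of 13 (0.09 to 0.34) and in megakaryocyte-primed-like cells in 12 of 12 (0.02 to 0.97, the lowest with marker genes left out of clustering). Cdkn2c stayed below 0 in each of them, from -4.40 to -0.88, -3.43 to -1.36 and -1.86 to -0.84. Cdkn1c also stayed below 0 in them, from -1.67 to -0.32, -1.69 to -0.071 and -1.81 to -0.57. The alternatives include leaving out the 10 cells richest in the gene from each library. These are a larger part of the irradiated HSC-like and lymphoid-primed-like cells, which were fewer. For Cdkn2c the irradiated ones hold most of the 11 and 18 UMIs there. In these classes that alternative pulls the ratio down by itself and cannot check a sign below 0. Cdkn1b and Cdkn2d in HSC-like cells kept their sign in 9 and 8 of 12.

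At a fixed class mix, cells named by their own markers gave 0.040 for Cdkn1a, -0.17 for Cdkn1b, -1.11 for Cdkn2c and -0.13 for Cdkn2d, and the irradiated mix gave -0.15 for Cdkn1b, -1.16 for Cdkn2c and -0.12 for Cdkn2d. The values by single clusters and by class and phase were added after the data were seen. Depth limits the irradiated Cdkn2c values of HSC-like and lymphoid-primed-like cells, which rest on 11 and 18 UMIs.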
